A study of Homo sapiens with 24 samples.

Results

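JIMT1 cells, a human breast cancer line with extra copies of ERBB2, were treated for 4 hr with the PDK1 inhibitor GSK2334470 (1 μM) or with DMSO, and the 6 arrays of these 2 groups are compared here. They are the JIMT1 arrays labelled GSK2334470 or DMSO, 3 of each, out of 24 Illumina bead arrays in the study. The other arrays hold JIMT1 cells given BYL719 (1 μM), an inhibitor of PI3Kα, or BYL719 and GSK2334470 together, and HCC1954 cells, a second breast cancer line, given the same 4 treatments. Every group was harvested at 4 hr, so the controls share the vehicle and the time. JIMT1 is 1 cell line, and the labels call the arrays of a group biological replicates without saying whether they came from separate cultures. The p-values thus measure the spread between arrays of a group, pooled over all 24 arrays in 1 model and not only over the 6 compared.

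PDK1, the product of PDPK1, phosphorylates the activation loop of kinases of the AGC family, among them AKT, SGK, S6K, RSK and several forms of PKC. AKT and SGK in turn phosphorylate the FOXO transcription factors and hold them in the cytosol, away from their target genes. These targets are known for slowing the cell cycle, for autophagy and for restoring receptor signaling. The question put to these arrays was which transcripts move when PDK1 alone is inhibited in cells that are insensitive to BYL719.

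Values are normalized log2 intensities, on which a difference of 1 is a doubling and changes of dim genes are understated. A gene was called when the adjusted p from limma, over 12109 genes, was under 0.05. GSK2334470 raised 118 genes (0.974% of those tested) and lowered 37 (0.306%). The changes were small: 9 of the raised genes reached 2-fold, no lowered gene detected in both groups did, and the median change of the called genes was 0.59 upward and -0.47 downward. All 155 called genes had 3 GSK2334470 arrays beyond all 3 DMSO arrays, a separation that 9.62% of all genes showed upward and 8.80% downward. Over all genes the median change was -0.004. Leaving out DMSO replicate 2 gave 68 genes higher and 11 lower, leaving out GSK2334470 replicate 1 gave 73 higher, and leaving out DMSO replicate 3 or GSK2334470 replicate 2 gave 20 or 18 lower. With the 6 arrays normalized and fitted alone, 28 genes were higher and 2 lower.

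The 6 arrays were alike in quality, with a median raw intensity of 51.6 to 67.8, 42.5% to 43.8% of probes detected above negative controls, and correlations of 0.993 to 0.994 within a group. The epithelial markers KRT8, KRT18, KRT19, EPCAM and CDH1, and ERBB2 with its neighbours STARD3 and PGAP3, were detected on all 6. Of 25 markers of blood, endothelial and stromal cells on the array, 12 were detected on no array, including PTPRC, CD3D, CD3E, KDR and VWF. Another 4 were detected on all 3 DMSO arrays, namely CD68 (mean log2 intensity 9.36), CD14 (7.68), PECAM1 and COL1A1. On all 3 GSK2334470 arrays 5 were detected, these and CDH5. The summed level of the 25 markers was 1680 to 1700 (linear intensity) with DMSO and 1620 to 1820 with GSK2334470. PECAM1, an adhesion molecule of endothelial cells and platelets, was the 1 called gene of that list, at 6.86, 6.85 and 6.58 with DMSO and 6.20, 6.29 and 6.04 with GSK2334470 (log2 change -0.58, adjusted p = 0.00499). Since these are bulk RNA measurements, fewer cells of a kind and less RNA per cell cannot be told apart.

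Promoter sequences are shown here only for raised genes that hold a word bound by FOXO factors. FOXO factors bind a core of GTAAACA, and this word was searched on both strands (on the reverse strand it reads TGTTTAC) in RefSeq windows from 250 bases before to 50 bases after each annotated start (GRCh38.p14). It was found in 1202 of 35116 windows (3.42%) and in the windows of 352 of the 9716 tested genes that matched the table (3.62%). Of the 118 raised genes, 97 matched and 17 held it (17.5%), and of the 37 lowered genes, 27 matched and 1, OSBPL6, held it (3.7%). These shares describe letters in a window and were given no test. Whole windows follow for 4 of the strongly raised genes, in the direction of transcription and with the motif in capitals.
TMEM140: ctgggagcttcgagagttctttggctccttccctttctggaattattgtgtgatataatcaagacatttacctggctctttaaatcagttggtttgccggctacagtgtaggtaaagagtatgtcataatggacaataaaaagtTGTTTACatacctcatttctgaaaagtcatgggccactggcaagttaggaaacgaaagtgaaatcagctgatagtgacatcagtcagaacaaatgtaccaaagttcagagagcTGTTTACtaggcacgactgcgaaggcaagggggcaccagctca
YPEL3: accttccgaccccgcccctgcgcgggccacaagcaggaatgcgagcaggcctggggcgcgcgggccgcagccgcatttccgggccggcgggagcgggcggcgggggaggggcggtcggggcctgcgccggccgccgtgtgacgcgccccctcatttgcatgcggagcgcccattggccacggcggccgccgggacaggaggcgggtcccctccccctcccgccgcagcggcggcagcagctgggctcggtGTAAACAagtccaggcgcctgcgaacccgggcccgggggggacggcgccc
HBP1: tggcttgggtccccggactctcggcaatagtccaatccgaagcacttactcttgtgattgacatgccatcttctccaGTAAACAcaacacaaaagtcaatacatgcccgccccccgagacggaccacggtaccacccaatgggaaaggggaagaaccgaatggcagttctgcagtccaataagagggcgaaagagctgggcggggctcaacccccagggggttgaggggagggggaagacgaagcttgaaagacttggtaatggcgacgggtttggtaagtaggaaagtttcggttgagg
ARID5B: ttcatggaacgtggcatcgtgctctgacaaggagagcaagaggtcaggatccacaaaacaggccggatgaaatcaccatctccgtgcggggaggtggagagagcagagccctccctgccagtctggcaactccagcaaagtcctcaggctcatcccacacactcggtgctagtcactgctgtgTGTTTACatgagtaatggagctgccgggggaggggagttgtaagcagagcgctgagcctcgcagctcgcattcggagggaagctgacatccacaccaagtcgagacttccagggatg
They lie at chr7:135147822-135148121 (plus strand), chr16:30096164-30096463 (minus), chr7:107168753-107169052 (plus) and chr10:62049107-62049406 (plus). TMEM140 held 2 copies, with first bases at -106 and 7 relative to the annotated start. The copy in YPEL3 began on the start itself, that in HBP1 at -173 and that in ARID5B at -67.

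For the other raised genes the site is shown with its flanks for 6 of them, to let the bases around the shared core be compared.
GRAMD1C: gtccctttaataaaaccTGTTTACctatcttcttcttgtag
COQ8A: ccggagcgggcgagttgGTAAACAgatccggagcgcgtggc
FOXO4: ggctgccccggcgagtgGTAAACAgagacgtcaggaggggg
CCDC28A: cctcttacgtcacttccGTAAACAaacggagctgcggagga
ATOSA: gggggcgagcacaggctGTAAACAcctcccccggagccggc
RNF39: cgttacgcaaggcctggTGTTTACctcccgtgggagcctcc
They come from chr3:113897413-113897453, chr1:226940275-226940315, chrX:71095857-71095897 and chr6:138773752-138773792 on the plus strand and from chr15:52678727-52678767 and chr6:30075809-30075849 on the minus strand. The remaining 7 were KLHDC2, OSBPL9, PCMTD2, SASH1, SPSB3, WDR48 and YTHDC1. Of the raised genes in the list of FOXO-activated genes given below, only HBP1 and YPEL3 were among those with the word. KLHL24, CREBRF and CCNG2 were not, whether for lack of the word or of a matched window. The core also stood in 8 of 73 matched genes raised when GSK2334470 was added to BYL719 in JIMT1 (11%) and in 15 of 132 in HCC1954 (11.4%), against 1 of 38 (2.63%) and 1 of 121 (0.826%) of the genes lowered there.

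KLHL24, an adaptor that brings substrates to a cullin ubiquitin ligase, rose the most. It read 8.39, 8.38 and 8.16 on the DMSO arrays and 9.87, 9.56 and 9.65 on the GSK2334470 arrays, a 2.6-fold rise (log2 change 1.38, SE 0.13, adjusted p = 2.9e-06). The lowest treated array stood more than 1 log2 unit above the highest control. CREBRF, which promotes loss of the transcription factor CREB3, read 5.94, 6.17 and 6.12 against 7.45, 7.18 and 7.61 (2.52-fold, adjusted p = 7.22e-05), and its other probe rose by 1.25. RGS7, which speeds the shut-off of G protein signals, read 6.46, 6.21 and 6.60 against 7.70, 8.06 and 7.32 (2.41-fold, adjusted p = 7.77e-05). Its treated arrays were the most scattered of the 12 largest rises (SD 0.37).

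CCNG2, an unconventional cyclin that restrains cell-cycle entry, read 5.72, 5.10 and 5.19 with DMSO and 6.43, 6.47 and 6.85 with GSK2334470 (2.37-fold, adjusted p = 0.000144). Its probe was detected on 1 of the 3 DMSO arrays, and 2 dimmer probes of the gene rose by 0.45 and 0.30. TMEM140 was likewise detected on 1 DMSO array, and read 5.03, 4.91 and 5.86 against 6.44, 6.51 and 6.62 (2.39-fold, adjusted p = 0.000583). The third DMSO array was the highest control for TMEM140, and no treated array overlapped it. YPEL3, a growth-suppressing member of the yippee-like family, was tighter, at 6.89, 6.81 and 6.97 against 7.87, 7.96 and 8.03 (2.09-fold, SE 0.10 on the log2 scale, adjusted p = 2.9e-06). HBP1, an HMG-box repressor of cell-cycle genes, read 6.51, 6.54 and 7.03 against 7.62, 7.59 and 7.75 (1.94-fold, adjusted p = 0.000155), with 1.16 for a second probe.

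**Figure D1:**
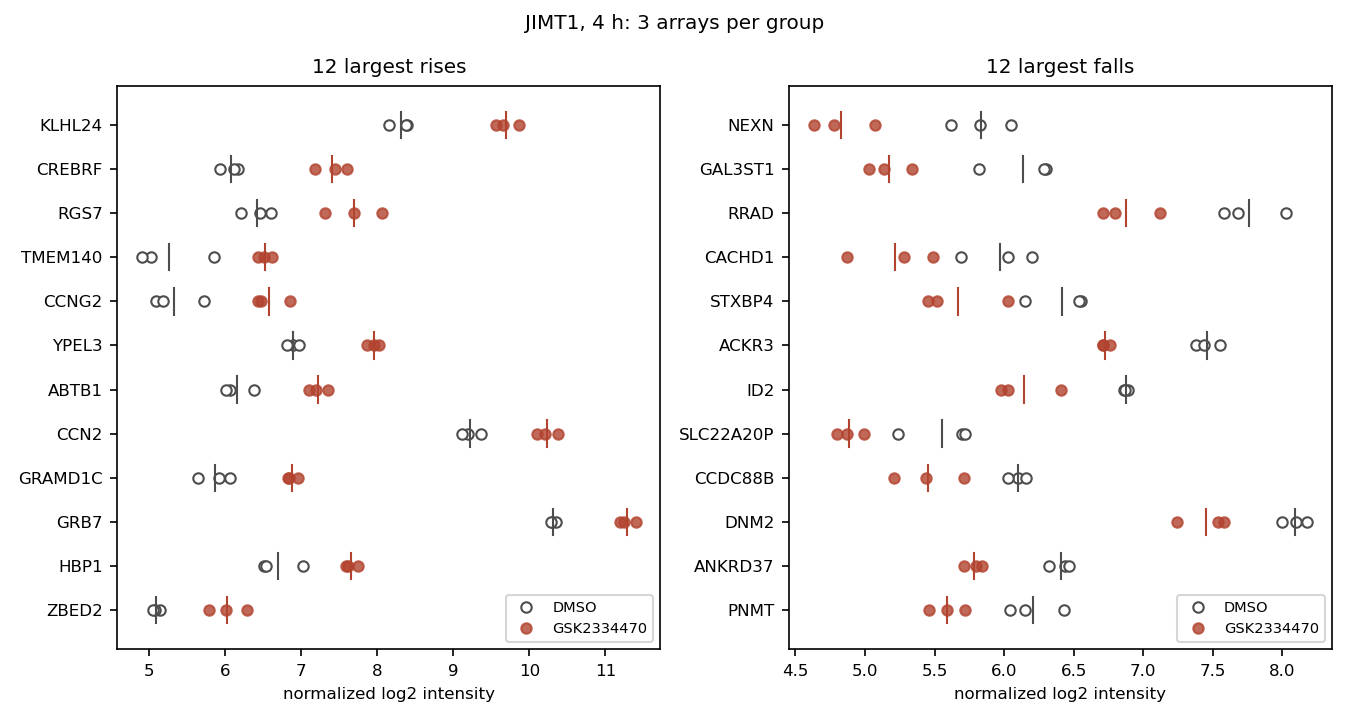
Normalized log2 intensity (horizontal axis) of the 12 called genes with the largest rises (left) and the 12 with the largest fitted falls (right) in JIMT1, 1 point per array, open for DMSO and filled for GSK2334470, with a tick at each group mean of 3 arrays. In every gene the groups are apart, with KLHL24 going from 8.16 to 8.39 up to 9.56 to 9.87 and RRAD from 7.58 to 8.03 down to 6.71 to 7.12. ZBED2 with DMSO, and NEXN and SLC22A20P with GSK2334470, were not detected.

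GRB7, an SH2 adaptor of receptor tyrosine kinases encoded beside ERBB2, read 10.30, 10.35 and 10.29 against 11.40, 11.19 and 11.25 (1.95-fold, adjusted p = 3.76e-05), and its 2 other probes rose by 0.89 and 0.58. The SD of the control arrays was 0.03. Of the 15 measured genes of the ERBB2 region, GRB7 was the only one called higher, PNMT, which makes adrenaline, was lower (-0.61, adjusted p = 0.0114, lost in 2 of the 6 fits that each left out 1 array), and the median change was -0.05. ERBB2 itself changed by 0.08 (adjusted p = 0.72). ABTB1, an ankyrin and BTB domain protein, rose 2.09-fold, GRAMD1C, a sterol transfer protein of the endoplasmic reticulum, 2-fold, and ARID5B, a chromatin regulator, 1.79-fold. The RNA of ZBED2 was detected on no DMSO array, and it was at least 1.69-fold higher with GSK2334470. Such a bound sets the treated mean against the dimmest detected signal of each DMSO array.

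A list of 58 FOXO-activated genes was drawn up with results of these arrays known, so it is no independent evidence of their direction. It had 52 measured members, of which 13 rose (25%), 0 fell and 39 did not pass the test. The lowest of the 39 stood at -0.54. In some alternative fits, such as that without GSK2334470 replicate 3, 1 member was called lower. Of all genes, 0.974% were called higher and 0.306% lower, which are the shares to set beside the counts of every list. The median change of the FOXO-activated list was 0.19, and 42 members lay above 0, against 49% of all genes. With undetected genes at their bound the median was 0.16. The members that rose were KLHL24, CREBRF, CCNG2, YPEL3, HBP1, GABARAPL1, FBXO32, IRS2, KLF6, CDKN2B, CITED2, YPEL5 and ATG14. Leaving out 1 array at a time left between 8 (without DMSO replicate 3) and 11 of the list higher, and the 6 arrays fitted alone left 7.

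Among these targets, the autophagy genes were led by GABARAPL1, an ATG8 relative of the autophagosome membrane, at 8.74, 8.70 and 8.85 against 9.55, 9.64 and 9.65 (1.81-fold, adjusted p = 7.77e-05). ATG14, which directs the lipid kinase VPS34 to autophagosomes, changed by 0.34 (adjusted p = 0.0483), a call lost in 5 of the 6 fits that left out an array. These were the 2 called genes among 41 of autophagy and lysosome, whose median change was 0.05. BNIP3L, a mitophagy receptor counted with HIF1 targets, rose by 0.69 (adjusted p = 0.00306), and RB1CC1, a subunit of the ULK1 complex, by 0.52 (adjusted p = 0.00207). ULK1 itself stood at 0.28 and PINK1, a kinase of damaged mitochondria, at 0.32, both short of the threshold. Of the 41 autophagy and lysosome genes, 25 lay above 0, and the lowest stood at -0.40.

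FBXO32, the F-box protein also known as atrogin-1, read 9.25, 9.25 and 9.23 against 10.02, 9.85 and 9.98 (1.63-fold, adjusted p = 1.9e-05). Its controls barely differed from each other. CITED2, a partner of the coactivators CBP and p300, rose by 0.44 (adjusted p = 0.0119, lost in 3 of 6 fits that left out an array), and KLF6, a zinc finger factor, by 0.62 (adjusted p = 0.0119, lost in 2). IRS2, the adaptor of insulin and IGF1 receptors, read 8.35, 8.34 and 8.12 against 9.19, 8.75 and 8.94 (1.61-fold, adjusted p = 0.0168, lost in 2 of 6 fits). ERBB3, a signaling partner of ERBB2, read 9.77, 9.66 and 9.93 against 10.11, 10.23 and 10.23, groups that do not overlap but whose difference of 0.41 did not pass the test (adjusted p = 0.204). TNFSF10, the death ligand TRAIL, was detected on no DMSO array and read 4.77, 5.54 and 5.87 with GSK2334470 (adjusted p = 0.149). BCL6, a transcriptional repressor of germinal centre B cells, stood at -0.09 (adjusted p = 0.713). DUSP5 (0.18, adjusted p = 0.339) and GADD45A (0.13, adjusted p = 0.544) did not pass the test.

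Of the FOXO factors themselves, FOXO4 rose, from 7.15, 7 and 6.96 to 7.62, 7.82 and 7.59 (1.56-fold, adjusted p = 0.0054). FOXO1 (-0.19, adjusted p = 0.503) and FOXO3 (-0.20, adjusted p = 0.585) did not pass the test. The transcripts that FOXO factors are known to lower included CCND1, cyclin D1, which was at 13.52, 13.58 and 13.71 with DMSO and at 13.60, 13.58 and 13.63 with GSK2334470, a difference of 0.00 (SE 0.09). Its arrays overlapped fully.

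PDPK1, which encodes the target of the drug, read 9.94, 9.65 and 9.77 with DMSO and 9.84, 9.90 and 9.69 with GSK2334470 (log2 change 0.03, SE 0.10, adjusted p = 0.954). The arrays overlapped. The drug blocks the kinase and not its transcript, so this value does not check the labels. Of 22 measured genes for PDK1, kinases of the AGC family and their regulators, SGK1 and RPS6KA5 rose, 0 fell and the median was -0.03.

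SGK1, the serum and glucocorticoid induced kinase, read 12.28, 12.44 and 12.54 with DMSO and 13.04, 13.02 and 13.01 with GSK2334470 (1.52-fold, SE 0.09, adjusted p = 0.000604). The treated arrays had an SD of 0.01 and stood above every control. Its other probes rose by 0.70 and 0.69. JIMT1 controls were already bright for SGK1, with a group mean of 12.42 against 9.27 in HCC1954 with DMSO. RPS6KA5, also called MSK1, a nuclear kinase of CREB and histone H3, read 6.28, 6.10 and 6.29 against 7.43, 6.78 and 7.24 (1.9-fold, adjusted p = 0.000685). SGK3 (0.13), AKT1 (-0.14) and NDRG1, a substrate of SGK1 (0.43, adjusted p = 0.197), did not pass the test.

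Above and beside PDK1 little moved. In 32 measured genes of the PI3K and mTOR pathway 0 were called, 17 lay above 0 and the median was 0.01. PIK3R3, a regulatory subunit of PI3K, was detected on 2 of the 3 DMSO arrays and on no GSK2334470 array, and its difference did not pass the test (adjusted p = 0.454). Of 21 receptor tyrosine kinases and adaptors, IRS2 and GRB7 rose. The immediate early factor EGR1 was the 1 called gene among 32 outputs of ERK signaling, at 8.80, 9.13 and 9.13 against 9.54, 9.41 and 9.74 (adjusted p = 0.0297, lost in 4 of 6 fits). In that list 24 members lay above 0, the lowest stood at -0.38 and the median was 0.11. The ERK phosphatase DUSP6 stood at 0.38 and MYC at 0.33, neither past the threshold.

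CCN2 and CCN1, secreted matricellular proteins that are known targets of YAP with TEAD factors and of serum response factor, rose together. CCN2, formerly CTGF, read 9.19, 9.11 and 9.36 with DMSO and 10.38, 10.10 and 10.21 with GSK2334470 (2.01-fold, SE 0.09, adjusted p = 2.9e-06), and a second probe rose by 0.78. CCN1, formerly CYR61, read 8.85, 8.96 and 9.07 against 9.56, 9.78 and 9.94 (1.74-fold, adjusted p = 0.00424). Neither gene overlapped between the groups. They were the 2 raised of 26 measured targets of these factors, ANKRD37 was the 1 lowered (-0.63, adjusted p = 0.0168, lost in 4 of 6 fits that left out an array), and the median was 0.05.

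The promoter window of CCN2 is shown because the word GGAATG, which TEAD factors bind, stands in it 3 times. It lies at chr6:131951323-131951622 on the minus strand, with the copies in capitals.
CCN2: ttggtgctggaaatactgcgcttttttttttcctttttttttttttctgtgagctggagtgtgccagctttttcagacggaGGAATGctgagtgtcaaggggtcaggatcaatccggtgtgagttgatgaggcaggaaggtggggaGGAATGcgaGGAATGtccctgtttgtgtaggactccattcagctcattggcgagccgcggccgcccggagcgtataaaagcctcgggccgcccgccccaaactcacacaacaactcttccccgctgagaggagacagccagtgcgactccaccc
The copies begin at -169, -104 and -95 relative to the start, all on the strand as printed. This word was searched on both strands and chosen after the values of CCN2 were seen. It stood in 14% of all windows and, counted per gene, in 14.8% of the 9716 matched tested genes. Among matched genes, 17 of the 97 raised (17.5%) and 7 of the 27 lowered (25.9%) held it.

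The restraints on the cell cycle moved unevenly. Of 20 measured brakes, CCNG2, HBP1 and CDKN2B rose, and the median was 0.15. CDKN2B, the CDK4 and CDK6 inhibitor p15, read 7.87, 7.81 and 7.90 against 8.36, 8.47 and 8.37 (1.46-fold, adjusted p = 0.0357), a call lost in each of the 6 fits that left out an array, and its other probes changed by 0.73 (brighter) and -0.01 (dimmer). CDKN1A, the p53 target p21, read 9.13, 9.18 and 9.49 against 8.53, 8.69 and 8.95, lower on each treated array but just outside the threshold (-0.54, adjusted p = 0.053). No member of 38 in G1/S and DNA replication was called (median 0), and of 33 in G2/M only the mitotic phosphatase CDC25C was, at 0.46 (adjusted p = 0.00763). MXD3 and MNT, which compete with MYC for its partner MAX, rose by 0.68 and 0.47 (MNT lost its call in 2 of 6 fits), and were the 2 called of 21 in the MYC and polyamine list.

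Growth and stress programs showed few calls. In ribosome biogenesis, POLR1E, a subunit of RNA polymerase I, fell from 11.09, 11.28 and 11.21 to 10.88, 10.72 and 10.82 (-0.39, adjusted p = 0.0415), and BYSL, a factor of the small ribosomal subunit, fell by 0.31 (adjusted p = 0.0366). Both calls were lost in 5 of 6 fits that left out an array. These were 2 of 55 measured genes, of which 8 lay above 0, and the median was -0.13. All 17 heat shock genes lay below 0, with a median of -0.16, and none was called (HSPA1A -0.36, adjusted p = 0.247). Among the lists with 0 calls were ATF4 targets (31 genes), sterol and fatty acid synthesis (29), cell death regulators (25), p53 targets (18), NF-kB targets (21), interferon-stimulated genes (28), the unfolded protein response (19), basal markers (15), housekeeping genes (17) and cytosolic ribosomal proteins (41). The ribosomal list does not hold RPL28, which was called lower (-0.43, adjusted p = 0.00461). At an unadjusted p under 0.05, 1488 of all genes differed.

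**Figure D2:**
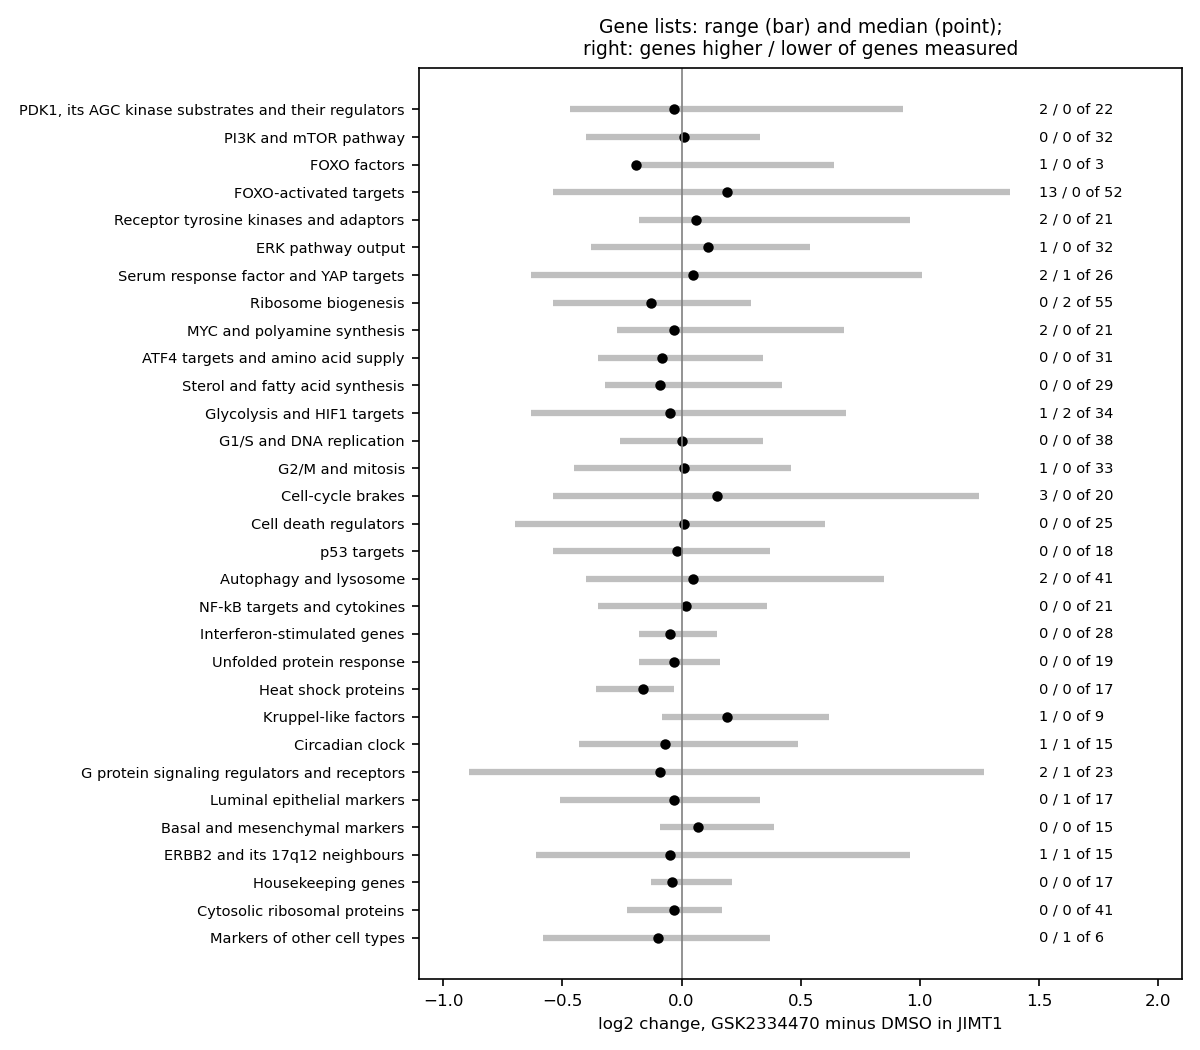
Log2 change between GSK2334470 and DMSO in JIMT1 (horizontal axis) for 31 gene lists, with a bar from the lowest to the highest measured member, a point at the median, and at the right the numbers of genes called higher and lower of those measured, undetected genes being drawn at fitted values. The FOXO-activated targets have 13 higher and 0 lower of 52, and ribosome biogenesis has a median of -0.13 with 0 higher and 2 lower of 55.

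The actin-binding protein NEXN was detected on no GSK2334470 array, so its fall has only a bound. It read 5.62, 6.05 and 5.83 with DMSO against 4.63, 4.78 and 5.07, a fall of at least 1.44-fold (adjusted p = 0.00826, lost in 2 of 6 fits). GAL3ST1, which makes sulfatide, read 5.82, 6.30 and 6.29 against 5.34, 5.03 and 5.14 (1.95-fold lower, adjusted p = 0.000506) and was detected on 1 treated array. RRAD, a small GTPase that dampens calcium channels, read 7.68, 8.03 and 7.58 against 6.80, 6.71 and 7.12 (1.85-fold lower, adjusted p = 0.00221), with -0.93 for a second probe. These leading falls were dim, which the log2 scale used here compresses.

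ACKR3, an atypical receptor that scavenges the chemokine CXCL12, read 7.38, 7.55 and 7.44 with DMSO and 6.71, 6.71 and 6.76 with GSK2334470 (1.65-fold lower, adjusted p = 0.000506). ID2, an inhibitor of basic helix-loop-helix factors, read 6.86, 6.89 and 6.87 against 6.41, 5.98 and 6.03 (1.66-fold lower, adjusted p = 0.00529). Neither overlapped between groups. SFN, the epithelial 14-3-3σ protein, was bright and tight, at 11.99, 12.01 and 12.03 against 11.55, 11.43 and 11.56 (1.41-fold lower, adjusted p = 0.000604). PFKFB4, which sets the level of a glycolytic activator, read 9.44, 9.48 and 9.27 against 8.91, 8.91 and 8.96 (1.38-fold lower, adjusted p = 0.0104, lost in 1 of 6 fits). DNM2, the endocytic GTPase dynamin 2, read 8.18, 8 and 8.10 against 7.58, 7.24 and 7.54 (1.56-fold lower, adjusted p = 0.00559), but a second probe changed by -0.07.

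Some calls near the threshold belong to regulators of identity and rhythm. ELF3, an ETS factor of epithelia, read 9.17, 9.13 and 9.16 against 8.82, 8.71 and 8.85 (-0.36, adjusted p = 0.0483), and was the 1 called gene of 17 luminal markers. The clock repressor NR1D2 rose by 0.49 (adjusted p = 0.0254), while NFIL3, a repressor in the same circuit, fell by 0.43 (adjusted p = 0.0365). ELF3 and NFIL3 lost their calls in each of the 6 fits that left out an array and NR1D2 in 4. Of 46 called genes with another probe, 52 of the 59 other probes had the same sign, 32 of them at an unadjusted p under 0.05, and 6 genes had a probe of opposite sign. Probes of ARHGAP24, which was called at 0.81, changed by 0.04 and -0.05.

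Whether the same genes moved elsewhere was asked in 3 contrasts whose group means share no array with GSK2334470 against DMSO in JIMT1. Their arrays were not independent of the calls, since all arrays were normalized together and shared a pooled variance for each gene. The SE of a gene was thus the same in each contrast, such as 0.0869 for CCN2. A small SE helps a gene to be called in each of them, so the shares called again are no independent check. The signs of the changes rest on the group means of the other arrays. In JIMT1, the combination against BYL719 alone gave 93 genes higher (0.768%) and 51 lower (0.421%). In HCC1954, the same contrast gave 171 higher (1.41%) and 159 lower (1.31%). GSK2334470 against DMSO in HCC1954 gave 1 called gene, YPEL1 (0.00826%), and 1675 at an unadjusted p under 0.05.

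On top of BYL719 in JIMT1, 110 of the 118 raised genes were again above 0 (93.2%, against 56.2% of all genes) and 36 were called higher (30.5%, against the 0.768% of all genes), with a median change of 0.28 in place of 0.59. CREBRF rose by 1.16 (adjusted p = 0.000434), RGS7 by 0.94, CCN1 by 0.91, GABARAPL1 by 0.82, HBP1 by 0.76, SGK1 by 0.75 (adjusted p = 0.000113) and CCN2 by 0.73 (adjusted p = 0.000132). In HCC1954, the combination against BYL719 had 105 of the 118 above 0 (89%, against 46.5%) and 33 called higher (28%, against 1.41%), among them IRS2 at 1.12, CREBRF at 1.04 and CCNG2 at 0.97. GSK2334470 alone in HCC1954 had 91 of the 118 above 0 (77.1%, against 53.2%), with a median of 0.14 and 0 called. In all 3 contrasts, 79 of the raised genes were above 0 (66.9%, against 18.2% of all genes). The genes with the largest middle value of the 3 were CCNG2, CREBRF, HBP1, CITED2 and RNF39.

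The lowered genes were looked up in the same way, and no test compared them with the raised genes. On top of BYL719 in JIMT1, 25 of 37 were below 0 (67.6%, against 43.8% of all genes), and ACKR3 (-1, adjusted p = 5.7e-05), RRAD (-0.62) and PFKFB4 (-0.49) were called lower, while RPL28 was called higher. In HCC1954, 23 of 37 were below 0 under the combination against BYL719 (62.2%, against 53.5%), with 8 called lower, and 24 under GSK2334470 alone (64.9%, against 46.8%). In all 3 contrasts, 10 of 37 were below 0 (27%, against 14.6%). Among all 37, the genes with the lowest middle value of the 3 were ID2, IFFO2, PFKFB4, PNP and RARA.

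**Figure D3:**
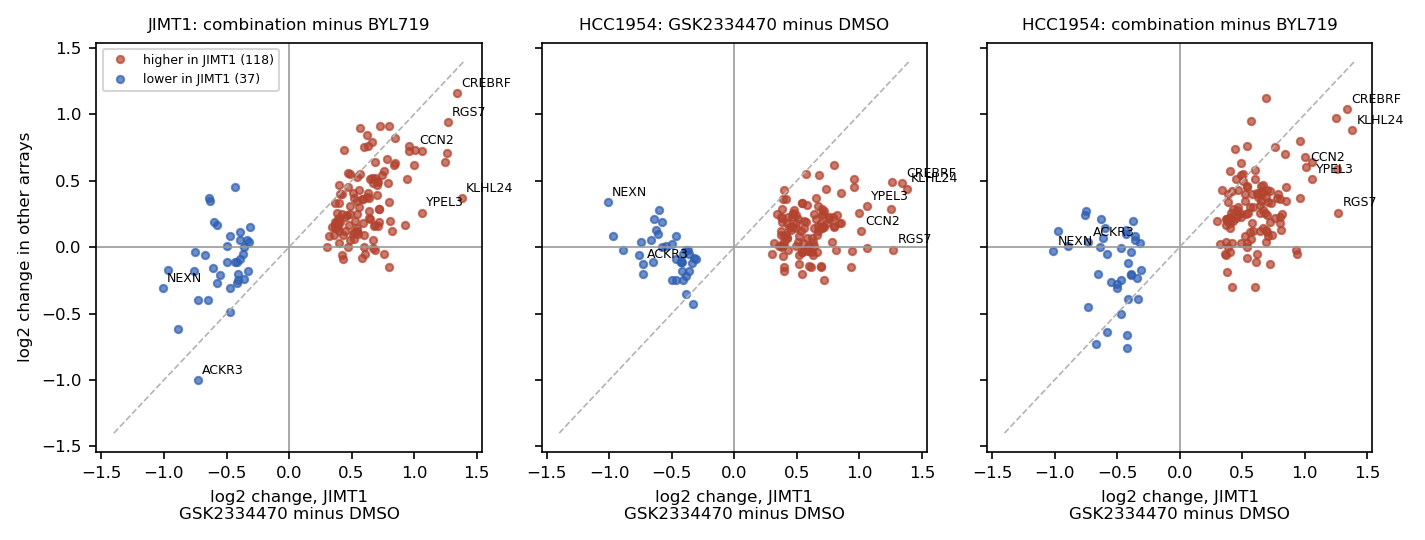
Log2 change of the 118 raised (red) and 37 lowered (blue) genes in JIMT1 with GSK2334470 (horizontal axis) against their log2 change in 3 contrasts on other arrays (vertical axis), with a dashed line where both are equal. Of the raised genes, 110 lie above 0 in JIMT1 on top of BYL719, 91 in HCC1954 with GSK2334470 alone and 105 in HCC1954 on top of BYL719.

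A direct test of the difference between the lines, the JIMT1 change minus the HCC1954 change, called 22 genes (0.182%), 14 with the higher change in JIMT1 and 8 with the lower, and 1342 had an unadjusted p under 0.05. Of the 22, 18 were called in JIMT1. CCN2 rose by 1.01 in JIMT1 and stood at 0.12 in HCC1954 (difference 0.89, SE 0.12, adjusted p = 0.00686), where it was already at 11.54, 11.40 and 11.34 with DMSO and at 11.50, 11.63 and 11.52 with GSK2334470. FBXO32 differed by 0.56 (adjusted p = 0.0399), RPS6KA5 by 1.08 and BNIP3L by 0.83. RGS7, GAL3ST1 and NEXN were detected on no HCC1954 array with DMSO, and the probes of RGS7 and GAL3ST1 on none with GSK2334470 either. A fall there could not have been seen, so the differences of these genes have no exact size. YPEL1 went the other way. It was detected on none of the 6 JIMT1 arrays, and in HCC1954 it went from undetected to detected on all 3 arrays, at least 1.83-fold higher. This count of 22 fell to 2 with median scaling and to 1 without background correction, and leaving out 1 of the 6 JIMT1 arrays gave between 2 (without DMSO replicate 2 or GSK2334470 replicate 1) and 6 (without DMSO replicate 1).

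**Figure D4:**
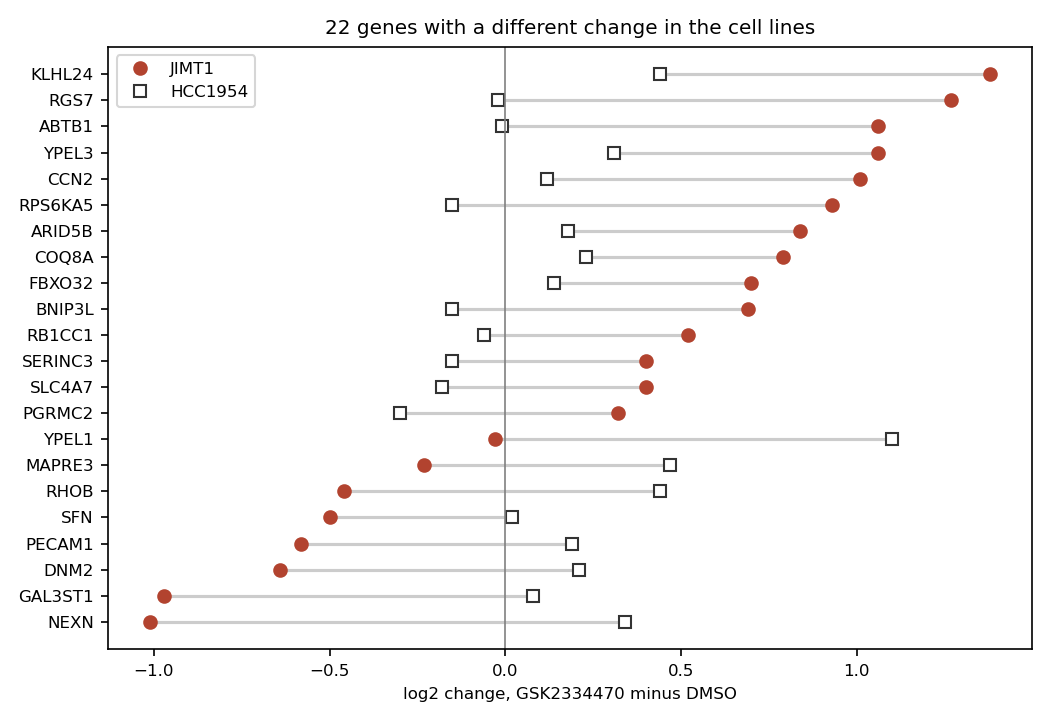
Log2 change between GSK2334470 and DMSO (horizontal axis) in JIMT1 (filled) and HCC1954 (open squares) for the 22 genes whose change differed between the lines. KLHL24 is at 1.38 and 0.44, and CCN2 at 1.01 and 0.12. YPEL1, NEXN, RGS7 and GAL3ST1 are drawn at fitted values although a group was not detected, so their places have no exact size.

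Within JIMT1, the effect of GSK2334470 on top of BYL719 was tested against its effect alone, and 4 genes differed (0.0330%), with 995 at an unadjusted p under 0.05. KLHL24 rose by 1.38 alone and stood at 0.37 on top of BYL719 (difference -1.01, adjusted p = 0.0489), and YPEL3 went from 1.06 to 0.26 (difference -0.81, adjusted p = 0.0362). BYL719 alone had already raised KLHL24 by 2.15 and YPEL3 by 2.01 over DMSO. With the combination both had their highest JIMT1 mean, 10.84 and 9.16. DNM2 (difference 1.01, adjusted p = 0.0288) and RPL28, a protein of the large ribosomal subunit (difference 0.88, adjusted p = 0.00102), fell alone and were at 0.37 and 0.45 on top of BYL719. With 1 array left out, between 1 and 5 genes differed, and with only the 12 JIMT1 arrays fitted, 0 did.

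At the matched dose and time, GSK2334470 was also compared directly with BYL719 in JIMT1, a contrast added after values were seen, where 260 genes were higher with GSK2334470 (2.15%) and 272 lower (2.25%). These arrays include the treated arrays that chose the called genes, so the counts that follow are a description. Of the 118 raised genes, 38 were lower with GSK2334470 than with BYL719 and 10 were higher. CCNG2 changed by 1.25 with GSK2334470 and 2.61 with BYL719, both against the same DMSO arrays, a difference of -1.36 (adjusted p = 2.04e-05). TMEM140 differed by -1.18, HBP1 by -1.16, FBXO32 by -1.04, CITED2 by -0.98 and FOXO4 by -0.76. BCL6, not called with GSK2334470, was at 0.72 with BYL719, and cyclin D1 at -0.56.

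The 10 genes that were higher with GSK2334470 were CCN1, CCN2, SGK1, KLF6, EGR1, FOXQ1, MIR205, WNT3, EMP1 and SIT1. CCN1 stood at -0.10 with BYL719, 0.91 below GSK2334470 (adjusted p = 0.000432), and FOXQ1, a forkhead factor, at -0.01, 0.74 below (adjusted p = 0.000664). SGK1 was at 0.14 with BYL719 and differed by 0.46 (adjusted p = 0.00278), and CCN2 was at 0.47 and differed by 0.54 (adjusted p = 0.000605). When GSK2334470 was added to BYL719 in JIMT1, CCN1, CCN2, SGK1, KLF6, FOXQ1 and the MIR205 locus were called higher. EGR1, WNT3, EMP1 and SIT1 were not. That contrast uses the same BYL719 arrays that picked these 10 genes, so it is no independent check of them. The probe of MIR205 is annotated to the locus and does not measure the mature miRNA. Among lowered genes, ELF3 (-0.36 against 0.94), ACKR3 (-0.73 against 0.34) and ID2 (-0.73 against 0.22) were lower with GSK2334470 than with BYL719, by 1.30, 1.06 and 0.95 on the log2 scale. SLC45A3 fell with both, by 0.55 with GSK2334470 and 1.35 with BYL719.

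**Figure D5:**
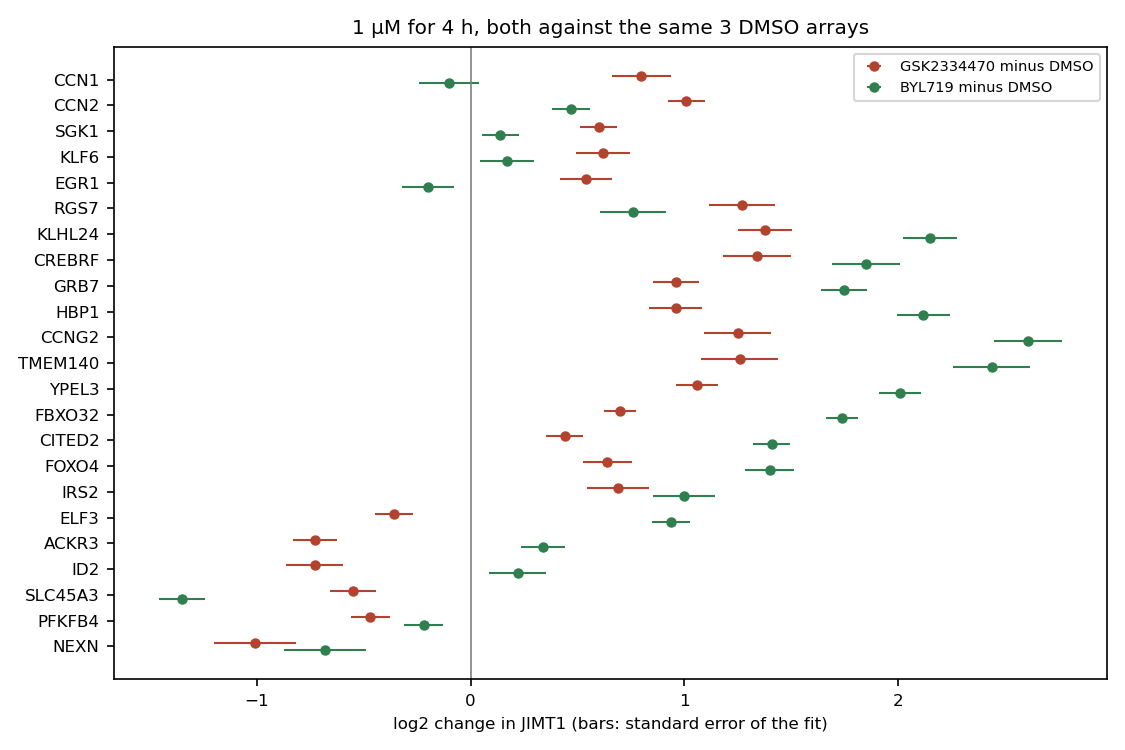
Log2 change in JIMT1 (horizontal axis, bars are the standard error of the fit) with GSK2334470 and with BYL719, each at 1 μM for 4 hr and each against the same 3 DMSO arrays, for 23 of the called genes. CCN1 is at 0.80 and -0.10, CCNG2 at 1.25 and 2.61, and ELF3 at -0.36 and 0.94.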

How the data were processed

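Total RNA was extracted with a column kit and hybridised as biotinylated cRNA. The authors deposited raw, linear intensities (the mean over the beads of each probe), not normalized, with a detection p-value against negative controls and bead counts. The authors also deposited a table of processed intensities whose method is not given in the sources used here, and it served only as an alternative. The submitters' processing notes name GenomeStudio, with no version given. The slide of each array is not given in the sources used here, so it was not examined as a batch.

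Background correction used limma 3.58.1 (R 4.3.3) and drew on the deposited detection p-values (offset 16). Then log2 was taken and 24 arrays were quantile normalized, which hides a change shared by most genes. Of 47323 probes, 30113 carried 1 gene symbol, 8 several and 17202 none. Probes with 1 symbol and a detection p-value under 0.05 on all 3 arrays of at least 1 of the 8 groups were kept (16345), and a gene took its brightest probe (12109 genes). Contrasts came from 1 model of 8 group means (16 residual and 3.98 prior degrees of freedom, lmFit and eBayes) with Benjamini-Hochberg adjustment. The code was tested on simulated data. The number of arrays, 3 per group, limits the precision. Bead standard errors (24 columns) were left out.

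The members and the 31 gene lists were chosen with earlier results of these data known, so no list counts as independent evidence. Genes named were those the study discusses, the 20 largest rises and falls whose arrays do not overlap, the called members or the largest change of each list, and the genes leading the contrasts on other arrays. ULK1, PINK1, DUSP6, MYC, RB1CC1, FOXQ1, WNT3, EMP1, SIT1, MIR205 and the genes named for their promoters were added after their values were seen. Alternatives covered background, scaling, filters, probe choice, the arrays fitted, the eBayes trend, array weights, a replicate block and single arrays left out.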

Additional observations from a re-analysis of the deposited data

Results flagged for a closer look

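The change with GSK2334470 differed between JIMT1 and HCC1954 in 22 genes by limma's test of the difference (JIMT1 minus HCC1954, log2). Higher in JIMT1 were RGS7 (1.29), RPS6KA5 (1.08), ABTB1 (1.07), KLHL24 (0.94), CCN2 (0.89), BNIP3L (0.83), YPEL3 (0.75), ARID5B (0.67), PGRMC2 (0.62), RB1CC1 (0.59), SLC4A7 (0.58), COQ8A (0.56), FBXO32 (0.56) and SERINC3 (0.55). Lower in JIMT1 were NEXN (-1.35), YPEL1 (-1.13), GAL3ST1 (-1.04), RHOB (-0.89), DNM2 (-0.85), PECAM1 (-0.77), MAPRE3 (-0.71) and SFN (-0.52). The values of NEXN, YPEL1, GAL3ST1 and RGS7 have no exact size, since each was detected on no array of at least 1 of the groups compared. For NEXN these were GSK2334470 in JIMT1 and DMSO in HCC1954, and for YPEL1 the JIMT1 groups and DMSO in HCC1954. For GAL3ST1 and RGS7 they were DMSO and, by the probe used, also GSK2334470 in HCC1954. RHOB, a small GTPase, was at -0.46 in JIMT1 and 0.44 in HCC1954, and PGRMC2, a heme-binding membrane protein, at 0.32 and -0.30, none of these 4 changes being called by itself.

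The change on top of BYL719 differed from that alone in JIMT1 in 4 genes, KLHL24 (-1.01), YPEL3 (-0.81), RPL28 (0.88) and DNM2 (1.01).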

How the results depend on the processing

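Every called gene kept its sign under each of the 21 alternatives that tested it. Of the 64 called genes that the naming rule took, 15 passed the threshold in all 21, among them KLHL24, YPEL3, CCN2, CCN1, CCNG2, CREBRF, HBP1, GRB7, GABARAPL1, FBXO32 and ARID5B. Another 32 lost their call in at least 1 of the 6 fits that left out an array, at adjusted p from 0.0507 to 0.238: 16, 27 and 23 of them without DMSO replicates 1, 2 and 3, and 23, 21 and 15 without GSK2334470 replicates 1, 2 and 3. These were ANKRD37, ARHGAP24, ATG14, BYSL, CACHD1, CCDC88B, CDKN2B, CITED2, EGR1, ELF3, FOXP4, GPRC5A, IFFO2, IRS2, KLF6, MNT, NEXN, NFIL3, NR1D2, PFKFB4, PIAS3, PNMT, PNP, POLR1E, RARA, RB1-DT, RNF39, SLC22A20P, SLC45A3, STXBP4, TRIM6 and YPEL5. CDKN1A passed under 8 alternatives.

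Genes higher, lower, differing between the lines and differing on top of BYL719 numbered 118, 37, 22 and 4. Leaving out 1 array gave 68 to 91, 11 to 34, 2 to 6 and 1 to 5. Normalizing and fitting the 12 JIMT1 arrays gave 75 higher and 23 lower, fitting only those arrays gave 72, 20 and 0 on top of BYL719, and the 6 arrays alone gave 28 and 2, with fewer samples in each fit. Array weights gave 204, 89, 61 and 9. Without background correction 1 gene differed between the lines and 2 on top of BYL719, and median scaling left 2 between the lines. With no filter on dim probes, which tests more genes, there were 24 lower, 2 between the lines and 1 on top of BYL719. An offset of 50 gave 56 lower. The cause of the other shifts was not tested. The 13 FOXO-activated genes, recounted after the data were seen, were 8 to 11 with 1 array left out, 7 with the 6 arrays alone and 9 to 14 otherwise. Under some of these alternatives, such as array weights, 1 member of that list was called lower.

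Deviations from the group mean of same-numbered DMSO and GSK2334470 arrays in JIMT1 correlated at -0.12, -0.03 and -0.05. Those of differently numbered arrays correlated at -0.04 to 0.08. No pairing by replicate number was seen, but with 3 arrays per group these values cannot settle whether the numbers mark one. A replicate block gave 99 higher, 31 lower, 8 between the lines and 3 on top of BYL719.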
